A study of Homo sapiens with 8 samples.

Results

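The response to an HSP90 inhibitor in cells depleted of HSF1 was read from 4 of the 8 arrays of the series. A375 is an established human melanoma cell line. It carried a Doxycycline-inducible short hairpin vector under puromycin selection, either against HSF1 (the hairpin named sh1999 in the labels, written here as shHSF1) or a non-targeting control (shNTC), and each stable line stands for 1 hairpin. The combination group was shHSF1 cells given Doxycycline at 100 ng/mL for 3 days and then NVP-HSP990, a small-molecule HSP90 inhibitor, at 100 nM for 3 h (2 arrays). The Doxycycline control was shNTC cells given the same Doxycycline and then 0.1% DMSO, the solvent, for 3 h (2 arrays). Both groups therefore held Doxycycline, and hairpin line and drug changed together, so this comparison cannot separate the inhibitor, the loss of HSF1 and any trait of the line, which cannot be told apart. The members were all 19775 genes with a probe set of their own on the HG-U133 Plus2 array, of which 12672 had enough signal to be tested. The other 4 arrays were NVP-HSP990 in shHSF1 cells and DMSO in shNTC cells, and their titles name no Dox. They gave the same kind of comparison with HSF1 present and share no array with the main one. Hairpin line and drug changed together there too and cannot be told apart. The inhibitor without Doxycycline, as written below, therefore names these groups and not an effect of the drug alone. The labels' growth text lists Doxycycline for all lines, and the titles were followed. Nothing in the labels ties the 2 arrays of each group to separate cultures, and p-values then measure only the spread between these arrays.

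HSP90 is a chaperone that folds kinases, receptors and transcription factors, and it also holds HSF1, the master transcription factor of the heat shock response, in an inactive state. When HSP90 is inhibited or proteins misfold, HSF1 forms trimers, binds heat shock elements (inverted repeats of GAA) and switches on HSP70, HSP40 and small heat shock protein genes. Another stress pathway, the integrated stress response, works through the transcription factor ATF4 and its amino acid response targets and does not need HSF1. A375 cells carry an activated BRAF kinase, itself a client of HSP90.

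Expression values were MAS5 signals, a linear brightness per probe set, and changes are differences of log2(signal + 16) between the group means with the standard error (SE) from limma, n = 2 arrays per group. The added 16 makes the change of a dim gene smaller than its ratio of signals. A gene was called when its Benjamini-Hochberg adjusted p over all 12672 genes was under 0.05. The array medians lay between 10.6 and 14.2 and all pairs of arrays correlated at 0.98 or more across probe sets. A single array stood apart. The second Doxycycline control array had a ratio of 3′ to 5′ ACTB control probes of 46.8, against 4.73 to 18.9 in the other 7 arrays, a sign of shorter cDNA, and a GAPDH ratio of 3.13 against 1.34 to 2.73. Of the 104 called genes named below 41 lost the call without it, and 24 with the ACTB ratio as a covariate.

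In the combination 739 of the 12672 genes were called, or 5.83%. Of these 360 were higher (2.84%) and 379 lower (2.99%), with median changes of 0.97 and -1.0 on the log2 scale against 0.01 over all genes tested. An unadjusted p under 0.05 by limma was seen for 2472 genes (19.5%, either direction). The shares of 2.84%, 2.99% and 19.5% are the background for the counts in gene lists below. A change of at least 1 on the log2 scale was seen in 165 of the risers and 191 of the fallers. In all 739 the 2 combination arrays lay wholly above or wholly below the 2 Doxycycline control arrays, which was so for 23.7% (above) and 20.9% (below) of all genes tested. The calls were made on these same values, so this separation is a description and no further evidence. The combination arrays also lay beyond all 4 shNTC arrays, with and without Doxycycline, for 352 of the 360 risers and 378 of the 379 fallers (17.1% and 16% of all genes tested). Doxycycline alone called 0 genes in shNTC cells by limma, with 306 at an unadjusted p under 0.05. Without the second Doxycycline control array 320 genes were called, 121 higher and 199 lower, and these held 112 of the 360 and 170 of the 379. Without the first or the second combination array the total was 446 and 263, and leaving out either array of shNTC cells without Doxycycline, which enter through the shared spread, gave 459 and 457. A core of 88 risers and 95 fallers was called in each of the 8 fits that left out 1 array.

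**Figure D1:**
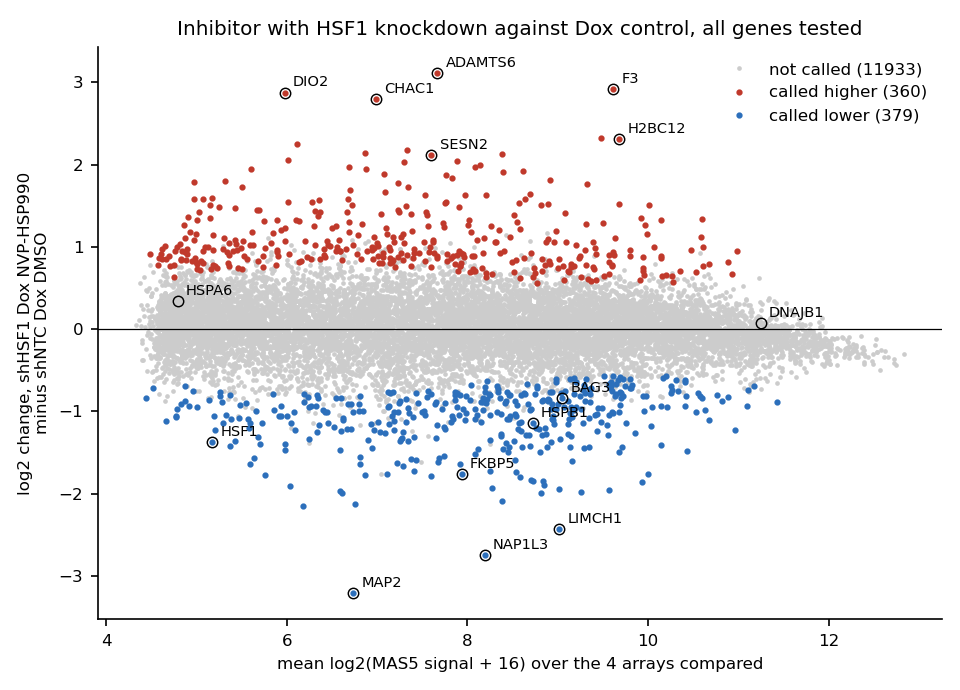
Each point is 1 of the 12672 genes tested, with mean log2(MAS5 signal + 16) over the 4 arrays on the x axis and the log2 change of the combination against the Doxycycline control on the y axis. The 360 genes called higher are red and the 379 called lower blue; HSF1, at -1.37, is among the lower, and the heat shock genes HSPA6 and DNAJB1 lie close to 0.

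The brightest genes were shifted as a body. The 725 genes with a mean log2(signal + 16) of at least 11 had a median change of -0.14, against 0.03 for the others, and 0.10 without the second Doxycycline control array. Small negative medians of lists of bright genes below stand beside that shift. Of these 725 genes limma called 0 higher (2 at an unadjusted p under 0.05) and 4 lower.

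HSF1, the target of the hairpin, had signals of 5.5 and 7.3 in the combination arrays and of 36.6 and 47.9 in the Doxycycline control arrays. The combination values lay below the array medians, whereas shHSF1 cells without Doxycycline had 99.0 and 42.5 and shNTC cells without it 38.2 and 47.3. HSF1 fell by 1.37 ± 0.29 (adjusted p = 0.0217), and fell by 2.55 with 1 in place of 16 added to the signal. The call was lost without either Doxycycline control array (adjusted p = 0.054 and 0.127) and without either combination array (0.0823 and 0.0785), while all combination values stayed below all control values. The second HSF1 probe set was at or under 10.1 on all 4 arrays and was not bright enough to be read.

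The heat shock protein families were not called higher in the combination. By limma 0 of 11 HSP70 and HSP110 genes, 0 of 16 HSP40 genes and 0 of 9 chaperonins were called, with medians of 0.08, -0.03 and -0.22 on the log2 scale. Before adjustment 1, 4 and 0 of them had a p under 0.05, against 19.5% of all genes tested. HSPB1 (HSP27), BAG3 (a nucleotide exchange factor of HSP70) and SERPINH1 (HSP47, the collagen chaperone of the ER) were called lower than in uninhibited control cells. The promoters of 3 of these genes are shown for the heat shock elements they hold, GAANNTTC (2 inverted GAA units) and the longer element in which NN and 1 more GAA follow it (3 units, so every match also holds GAANNTTC), searched on both strands from 250 bases before to 50 bases after the RefSeq start (GRCh38.p14, all on the + strand). Capitals mark the matches.
HSPA6, chr1:161524290-161524589, + strand: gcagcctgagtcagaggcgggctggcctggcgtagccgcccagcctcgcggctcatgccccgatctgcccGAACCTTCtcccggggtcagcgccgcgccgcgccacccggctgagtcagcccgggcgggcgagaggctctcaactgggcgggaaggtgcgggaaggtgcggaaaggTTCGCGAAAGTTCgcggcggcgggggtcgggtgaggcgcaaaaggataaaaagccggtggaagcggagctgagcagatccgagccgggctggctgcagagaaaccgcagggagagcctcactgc
HSPB1, chr7:76302423-76302722, + strand: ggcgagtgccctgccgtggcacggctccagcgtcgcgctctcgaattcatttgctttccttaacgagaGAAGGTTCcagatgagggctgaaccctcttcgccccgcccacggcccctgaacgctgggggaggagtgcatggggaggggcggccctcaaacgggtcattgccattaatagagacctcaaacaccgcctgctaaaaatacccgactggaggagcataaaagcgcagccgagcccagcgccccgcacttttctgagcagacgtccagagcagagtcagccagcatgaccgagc
SERPINH1, chr11:75562003-75562302, + strand: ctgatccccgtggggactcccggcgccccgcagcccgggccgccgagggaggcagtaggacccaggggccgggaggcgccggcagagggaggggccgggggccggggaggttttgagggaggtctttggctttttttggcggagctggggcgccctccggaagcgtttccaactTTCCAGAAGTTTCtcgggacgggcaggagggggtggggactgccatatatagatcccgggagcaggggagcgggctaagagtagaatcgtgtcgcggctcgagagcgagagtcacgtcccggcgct
HSPA6 held 2 matches to the shorter element, beginning 180 and 69 bases before the start, the second within a match to the longer one. HSPB1 held 1 match to the shorter element, 182 bases before the start, and SERPINH1 1 match to both, 71 bases before it. Of the promoters of 10346 genes tested, 4.73% held GAANNTTC and 0.338% the longer element. In the heat shock protein, cochaperone and BAG lists 9 of 46 promoters held GAANNTTC (19.6%) and 4 the longer element, so most held neither in this window. GAANNTTC was in 6.18% of the promoters of the risers (17 of 275) and 6.17% of those of the fallers (20 of 324). For the 20 genes with a promoter entry that were called higher without Doxycycline it was in 6.

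HSPA6, a strictly stress-induced HSP70, had signals of 18.3 and 12.4 in the combination and of 5.1 and 12.7 in the Doxycycline control. In the inhibited shHSF1 cells with HSF1 present it had 1680.8 and 1328.5, against 8.0 and 15.5 in shNTC cells with DMSO. The first combination array was above all 4 uninhibited arrays by a few units of signal and the second was among them, a change of 0.34 ± 0.24 (adjusted p = 0.49). The other HSPA6 probe set, also dim, had 13.0 and 17.6 against 6.0 and 7.1, which did not overlap, a change of 0.47. HSPA1L, another HSP70 gene, had 10.9 and 11.2 against 2.3 and 9.2 (0.33 ± 0.20), and without Doxycycline 112.6 and 102.7 against 12.3 and 8.6. HSPA4L, of the HSP110 family, had 31.7 and 36.7 against 32.8 and 27.6 (0.12 ± 0.20), and without Doxycycline 197.6 and 242.9 against 35.8 and 35.6. In both the 2 inhibited arrays without Doxycycline were the highest of the 8. Probe sets shared by HSPA1A and HSPA1B were not assigned to either gene and were not used.

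DNAJB1, the main HSP40 partner of HSP70, had signals of 2559.7 and 2392.9 in the combination and of 2033.3 and 2706.6 in the control (0.08 ± 0.18), so the groups overlapped. The other DNAJB1 probe set had 442.1 and 459.0 against 346.4 and 346.0, which did not overlap, a change of 0.37. DNAJB4, also an HSP40, had 223.0 and 349.1 against 178.2 and 149.9. Its arrays did not overlap, but the change of 0.72 ± 0.24 was not called (adjusted p = 0.123). CRYAB, the small heat shock protein alpha-B crystallin, was at 6.6 and 4.2 against 12.3 and 6.5. All 4 values lie near or under the array medians, while shHSF1 cells with the inhibitor and without Doxycycline had 50.0 and 46.7. DEDD2, a death effector domain protein, had 233.6 and 155.2 against 226.9 and 198.4 (-0.14 ± 0.21). Without Doxycycline it had 795.0 and 625.8 against 224.6 and 207.7, so here too the rise was seen with HSF1 present and no call was made with HSF1 depleted.

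HSPB1 had 326.2 and 220.4 in the combination and 589.2 and 633.4 in the control, and fell by 1.14 ± 0.20 (adjusted p = 0.00966). The call was lost without the second Doxycycline control array (adjusted p = 0.0698) or the second combination array (0.069). BAG3 had 391.2 and 368.1 against 601.1 and 794.7 and fell by 0.84 ± 0.17 (adjusted p = 0.0161). Its call was lost without that control array (0.0842) and without the first (0.0533) or second (0.101) combination array. SERPINH1 had 38.8 and 40.1 against 87.9 and 72.0 and fell by 0.79 ± 0.20 (adjusted p = 0.0476), a call that none of the 8 fits with an array left out kept (adjusted p up to 0.173). All 3 genes were called higher with the inhibitor when HSF1 was present, HSPB1 by 1.54 (2006.0 and 1500.2 against 588.2 and 581.5), BAG3 by 1.91 (2510.3 and 2699.5 against 649.1 and 718.7) and SERPINH1 by 1.36 (204.7 and 243.3 against 83.3 and 71.4). They were the only genes called in opposite directions in the 2 comparisons.

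Of 15 HSP90 and cochaperone genes 1 was called higher and 1 lower. HSP90AA1, the inducible cytosolic HSP90, had 4642.5 and 5551.5 against 5265.9 and 9748.9 (-0.50 ± 0.28, adjusted p = 0.38, and -0.05 without the second control array). HSP90AB1, the constitutive form, had 2511.9 and 2574.6 against 3385.4 and 3919.6, arrays that did not overlap, and missed the threshold (-0.52 ± 0.17, adjusted p = 0.115). Its other probe sets changed by -0.29 and 0.06, the latter with overlapping groups, and the mean of its probe sets by -0.25. The gene called lower was FKBP5, an immunophilin of the HSP90 complex and a glucocorticoid receptor target, at 104.4 and 130.7 against 441.8 and 428.6. It fell by 1.76 ± 0.16 (adjusted p = 0.000402) and was called in all 8 fits with an array left out, and the next brightest of its probe sets changed by -1.38. CDC37L1, a relative of the kinase cochaperone CDC37, was at 719.6 and 766.8 against 487.3 and 461.1 and rose by 0.63 ± 0.15 (adjusted p = 0.0412), a call kept in 2 of the 8 fits and opposed by another of its probe sets at -0.54 (-0.01 for the mean of its probe sets).

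**Figure D2:**
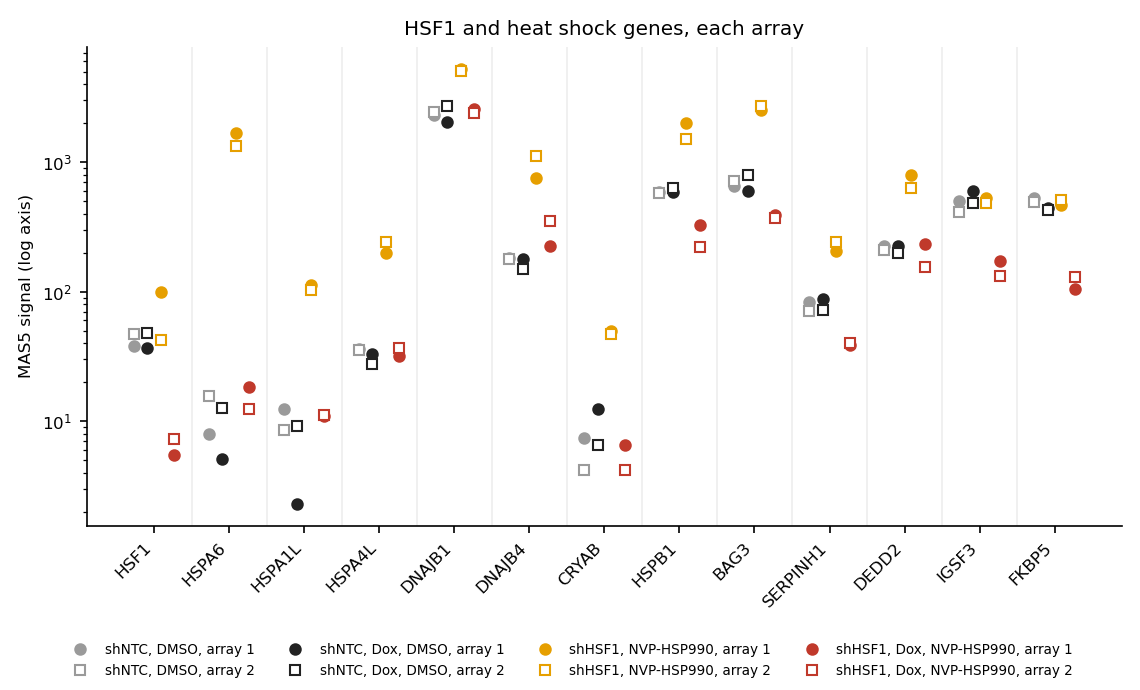
MAS5 signal on a log axis of HSF1, 10 genes known or studied as heat shock genes, IGSF3 and FKBP5 on each of the 8 arrays (circles array 1, squares array 2, colours the 4 groups). The combination arrays (red) lie among or close to the shNTC arrays (grey and black) for HSPA6, HSPA4L, DNAJB1 and DEDD2, and below them for HSF1, HSPB1, BAG3, SERPINH1, IGSF3 and FKBP5.

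The 18 genes of a published heat map were chosen on these same samples, for a rise with the inhibitor that knockdown of HSF1 removed. Neither their direction without Doxycycline nor the lack of a rise in the combination is independent evidence, and both are given as a description. Of the 16 tested here 10 were called higher without Doxycycline (median 1.42) and 0 were called higher in the combination (1 at an unadjusted p under 0.05, median -0.10), where 3 were called lower. These were HSPB1, BAG3 and IGSF3, a membrane protein of the immunoglobulin superfamily. IGSF3 had 173.1 and 132.9 against 596.5 and 484.8 and fell by 1.72 ± 0.19 (adjusted p = 0.000916), and without Doxycycline it changed by 0.13. Its other probe sets had signals of at most 14.7 on these arrays and changes of -0.11 to -0.45, and with the mean of its probe sets the call was lost.

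Genes of the ATF4 stress response were higher in the combination. This list, like the histone list and the others, was chosen with earlier results of these data known. Its count is therefore a description and not independent evidence. Of 32 genes of the amino acid and mitochondrial stress response tested 12 were called higher and 0 lower (19 and 0 at an unadjusted p under 0.05), with a median change of 0.64 and 26 of the 32 above 0. Over all genes tested 2.84% were called higher and 2.99% lower, with a median of 0.01. Without the second Doxycycline control array 10 were called, and over all 8 fits with an array left out 8 to 13. The transcription factors ATF3, DDIT3 (CHOP) and CEBPG, the pseudokinase TRIB3, the glutathione-degrading enzyme CHAC1, the stress sensor SESN2, the asparagine synthetase ASNS, the cystine transporter SLC7A11, the cysteine-making enzyme CTH, the mitochondrial PEP carboxykinase PCK2 and the secreted proteins STC2 and GDF15 were the 12. ATF4 itself, which is controlled mainly at translation, had 2625.4 and 2561.8 against 2330.2 and 3096.0 (-0.05 ± 0.17). Promoters of 2 of them are shown for the core of the C/EBP-ATF response element, TGATGNAA, searched on both strands in the same window, with matches in capitals.
CHAC1, chr15:40953221-40953520, + strand: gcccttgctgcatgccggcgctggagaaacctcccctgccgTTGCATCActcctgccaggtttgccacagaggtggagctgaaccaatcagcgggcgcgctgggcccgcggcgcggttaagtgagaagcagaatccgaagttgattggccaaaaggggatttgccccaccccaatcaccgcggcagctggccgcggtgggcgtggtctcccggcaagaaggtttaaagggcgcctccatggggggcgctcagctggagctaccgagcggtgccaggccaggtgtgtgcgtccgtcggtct
ATF3, chr1:212565157-212565456, + strand: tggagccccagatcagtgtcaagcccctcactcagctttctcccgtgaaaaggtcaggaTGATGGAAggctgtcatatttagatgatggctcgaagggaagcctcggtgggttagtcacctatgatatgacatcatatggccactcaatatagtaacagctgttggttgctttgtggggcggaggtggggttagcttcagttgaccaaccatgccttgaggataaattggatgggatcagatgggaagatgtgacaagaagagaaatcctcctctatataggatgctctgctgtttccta
CHAC1 held the element 209 bases and ATF3 191 bases before the start, and of the 11 called genes with a promoter entry ASNS was the other one that held it. TGATGNAA was in 1.86% of the promoters of the genes tested, in 4.73% of those of the risers (13 of 275) and in 1.85% of those of the fallers (6 of 324).

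CHAC1 had signals of 288.2 and 353.1 in the combination and of 27.7 and 37.2 in the Doxycycline control, and rose by 2.80 ± 0.22 (adjusted p = 0.000231). It rose by 2.14 without Doxycycline as well, with 248.2 and 222.9 against 49.9 and 33.2. SESN2 had 378.4 and 397.1 against 80.1 and 74.8 (2.11 ± 0.17, adjusted p = 0.000231) and rose by 1.35 without Doxycycline. DDIT3 had 382.1 and 451.3 against 98.7 and 110.8 (1.84 ± 0.18, adjusted p = 0.000529) and rose by 1.18 without it. These genes were high in all 4 inhibited arrays and low in all 4 DMSO arrays. All 4 inhibited arrays were shHSF1 cells and all 4 DMSO arrays shNTC cells, so drug and hairpin line cannot be told apart here. CTH had 459.7 and 652.5 against 152.8 and 101.7 and rose by 2.00 ± 0.27 (adjusted p = 0.00235). GDF15 had 521.5 and 410.1 against 95.5 and 104.2 and rose by 2.05 ± 0.25 (adjusted p = 0.0014). ATF3 had 324.4 and 378.3 against 108.9 and 113.0 and rose by 1.53 ± 0.19 (adjusted p = 0.00172). The other 6 rose by 0.79 (ASNS) to 1.52 (STC2). Of the 12, CHAC1, SESN2, DDIT3, ATF3, STC2, CTH and GDF15 were called in all 8 fits with an array left out. TRIB3, ASNS, SLC7A11, CEBPG and PCK2 lost the call in 1 to 5 of them, with adjusted p values of at most 0.16. The median of the list without Doxycycline was 0.58 with 4 genes called (CHAC1, SESN2, DDIT3 and SLC7A11), and in the test of the difference between the comparisons 0 of the 12 were called by limma (5 at an unadjusted p under 0.05). Of these 5, SESN2, GDF15, DDIT3 and ATF3 rose more in the combination, by 0.76, 1.04, 0.66 and 0.68. SLC7A11 rose less (-0.615).

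Of 24 genes of the unfolded protein response of the ER, HERPUD1 (0.96 ± 0.15, adjusted p = 0.00583) and XBP1 (1.51 ± 0.24, adjusted p = 0.00635) rose. HERPUD1, an ER membrane protein of ER-associated degradation, had 2056.3 and 1879.7 against 1012.5 and 989.6. XBP1, a transcription factor of that response, had 682.6 and 810.1 against 258.3 and 242.2, and its call was lost without the second control array (adjusted p = 0.0517). ATF6, a membrane-bound sensor, was called lower at 128.9 and 132.9 against 229.1 and 246.4 (-0.79 ± 0.16, adjusted p = 0.0205), and kept the call in 3 of 8 fits. Another of its probe sets overlapped, at 151.5 and 201.8 against 231.3 and 200.6. The list median of 0.07 lay near that of all genes tested. HSPA5 (BiP), the ER HSP70, had 3832.3 and 3942.7 against 2814.3 and 4789.4, so the groups overlapped. Its other probe set had 745.7 and 634.4 against 418.1 and 397.2, which did not overlap, a change of 0.73.

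The 3 largest rises lay outside both stress response lists. ADAMTS6, a secreted metalloprotease, had 558.2 and 603.7 against 52.4 and 53.5 and rose by 3.11 ± 0.22 (adjusted p = 0.000231), the largest rise of all genes called. F3, tissue factor, which starts blood coagulation, had 1864.2 and 2449.3 against 331.9 and 217.5 and rose by 2.92 ± 0.24 (adjusted p = 0.000231). DIO2, the deiodinase that activates thyroxine, had 191.8 and 124.2 against 8.6 and 6.0 and rose by 2.88 ± 0.25 (adjusted p = 0.000284). None of the 3 was called without Doxycycline, where ADAMTS6 changed by 0.89, F3 by -0.31 and DIO2 by 0.41, and the difference was called for each. YOD1, a deubiquitinating enzyme that works with p97, had 1617.1 and 1533.4 against 347.8 and 262.3 (2.32 ± 0.19). HHAT, the acyltransferase of hedgehog ligands, had 678.5 and 680.2 against 151.0 and 135.2 (2.13 ± 0.18). HBEGF, an EGF receptor ligand, had 709.6 and 566.2 against 176.7 and 140.0 (1.91 ± 0.18). In shNTC cells Doxycycline alone went with changes of -0.70 to -0.85 in F3, YOD1, HHAT and HBEGF, none of them called (F3 had 468.5 and 528.2 in shNTC cells without Doxycycline). Against all 4 shNTC arrays these 4 genes rose by 2.49, 1.90, 1.78 and 1.5. ANXA3, TMEM52B, GFRA1 (a GDNF receptor), TSPAN2 and RAB39B (a small GTPase) rose by 2.03 to 2.25, and all genes named in this paragraph were called in all 8 fits with an array left out. Another probe set of ADAMTS6 and of GFRA1, with signals of at most 16.9, changed by 0.69 and 0.67. Doxycycline alone changed ADAMTS6 by -0.66 and GFRA1 by -0.54, not called, and against all 4 shNTC arrays they rose by 2.78 and 1.79.

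**Figure D3:**
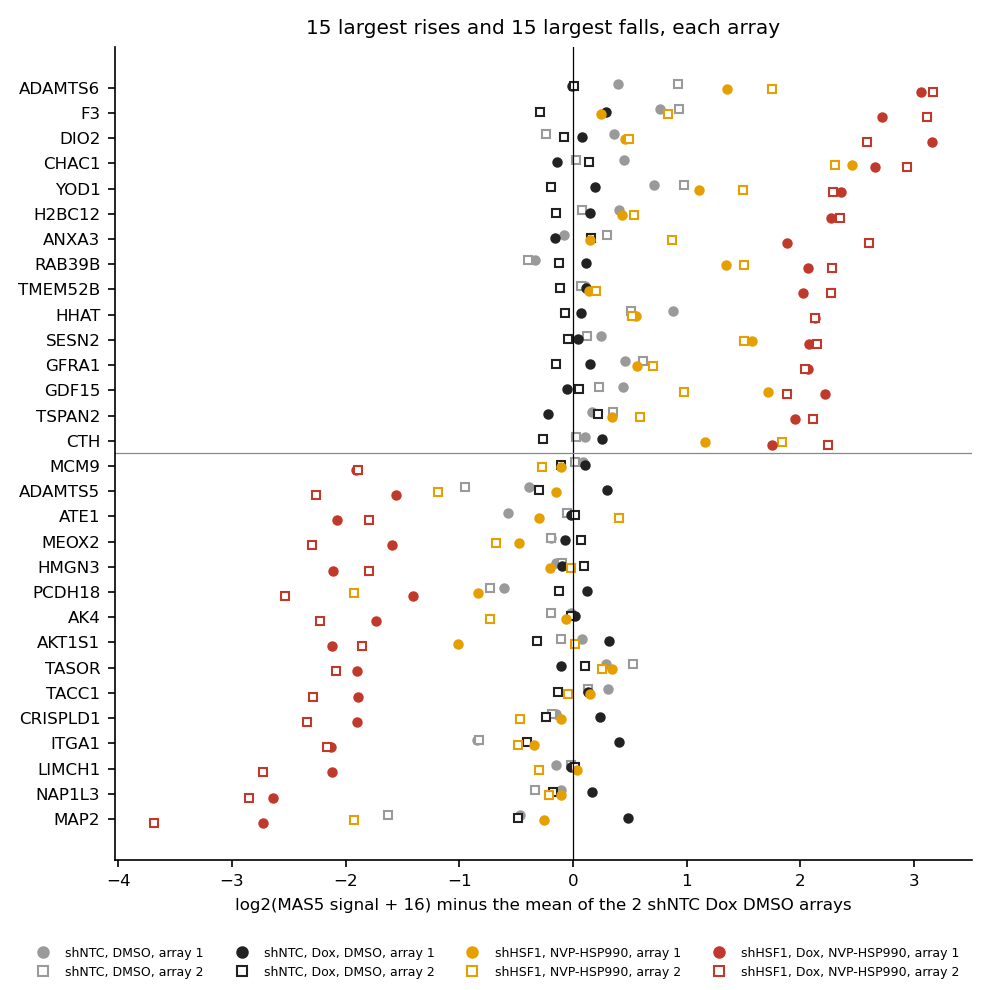
Log2(MAS5 signal + 16) on each array minus the mean of the 2 Doxycycline control arrays, for the 15 largest rises (top) and 15 largest falls (bottom) among genes called. The combination arrays (red) stand apart from all others for most genes, while for CHAC1, RAB39B, SESN2, GDF15 and CTH the inhibited arrays without Doxycycline (orange) lie to the right as well.

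YAP target genes respond to cytoskeletal tension and Hippo signalling. Of 15 tested 5 were called higher and 1 lower, with a list median of 0.21. Beside F3 these were ANKRD1, CCN1, CCN2 and THBS1. ANKRD1, a nuclear ankyrin repeat protein, had 821.9 and 951.6 against 341.9 and 168.3 and rose by 1.81 ± 0.28 (adjusted p = 0.00542). CCN1 (CYR61), a matricellular protein, had 2132.3 and 2807.5 against 815.5 and 1114.9 and rose by 1.34 ± 0.20 (adjusted p = 0.00479). CCN2 (CTGF) rose by 1.26 and THBS1 (thrombospondin 1) by 0.95, while another probe set of THBS1 overlapped (1452.6 and 559.3 against 775.7 and 809.0). In shNTC cells Doxycycline alone changed ANKRD1, CCN1 and THBS1 by -0.35, -0.58 and -0.49, none of them called. Against all 4 shNTC arrays they rose by 1.63, 1.05 and 0.70. NT5E, the ecto-nucleotidase CD73, had 629.7 and 411.8 against 1165.9 and 979.9 and fell by 1.05 ± 0.26 (adjusted p = 0.0428), a call kept in 3 of the 8 fits with an array left out (adjusted p up to 0.253). The same 5 risers were called without the second control array, and over the 8 fits 4 or 5 were. Without Doxycycline the list median was -0.03 and no member was called by limma, with 0 at an unadjusted p under 0.05. The difference was called for F3 and ANKRD1. The other probe sets of NT5E changed by 0.08, -0.16 and -0.42, and with the mean of its probe sets the call was lost.

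Histone genes also rose, and those called were genes of the replication-dependent clusters. Of 14 tested 9 were called higher and 0 lower (9 and 0 at an unadjusted p under 0.05), with a median of 0.97, against 0.00 without Doxycycline. H2BC12 had 1753.5 and 1858.5 against 391.6 and 315.7 and rose by 2.31 ± 0.17 (adjusted p = 0.000231). H2AC6 had 1253.1 and 1080.3 against 374.5 and 291.9 and rose by 1.77 ± 0.19 (adjusted p = 0.000916). H2BC4 had 54.6 and 41.2 against 5.4 and 8.2 and rose by 1.48 ± 0.18 (adjusted p = 0.00143). In each the combination arrays were the 2 highest of the 8. H1-2, H2AC8, H2BC5, H2BC6, H2BC21 and H4C8 rose by 0.92 to 1.58. The count moved with the second control array: without it 3 were called (H2BC12, H2AC6 and H2BC4) and the median was 0.79. With the ACTB ratio as a covariate 4 were called, and 3 to 9 over the 8 fits. Histone genes are near copies of each other, so a probe set may read several of them. S phase genes had a median of 0.13 and G2 and M phase genes of -0.17, and limma called 0 of 27 and 0 of 32. At an unadjusted p under 0.05 there were 3 and 6, against 19.5% of all genes tested.

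The largest falls were MAP2, NAP1L3 and LIMCH1. MAP2, a microtubule-associated protein, had 32.8 and 9.1 against 435.0 and 215.5 and fell by 3.21 ± 0.57 (adjusted p = 0.00958). MAP2 had 217.6 and 88.5 in shNTC cells without Doxycycline, a change of 1.05 with Doxycycline alone that was not called. Against all 4 shNTC arrays it fell by 2.68. Its arrays spread widely in each group, and the call was lost without the first control array (adjusted p = 0.0635) or the second combination array (0.0596). NAP1L3, of the nucleosome assembly protein family, had 105.3 and 89.1 against 834.6 and 654.9 and fell by 2.74 ± 0.17 (adjusted p = 0.000183), the smallest adjusted p of the comparison. LIMCH1, an actin-associated protein, had 258.7 and 164.3 against 1165.8 and 1193.0 and fell by 2.43 ± 0.20 (adjusted p = 0.000231). In shHSF1 cells with the inhibitor and without Doxycycline NAP1L3 had 686.2 and 636.6 and LIMCH1 1206.2 and 954.3, values like those of shNTC cells. The low values were thus in the 2 combination arrays alone, and for both the difference between the comparisons was called.

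ITGA1, the collagen-binding integrin alpha 1, had 18.8 and 18.0 against 185.8 and 98.8 and fell by 2.15 ± 0.26 (adjusted p = 0.00141). ITGA1 had 68.7 and 69.8 in shNTC cells without Doxycycline, a change of 0.84 with Doxycycline alone that was not called. Against all 4 shNTC arrays it fell by 1.73. HMGN3, a nucleosome-binding protein, had 330.1 and 414.0 against 1379.2 and 1586.2 and fell by 1.95 ± 0.16 (adjusted p = 0.000231). TASOR, a subunit of the HUSH silencing complex, had 224.1 and 195.5 against 818.9 and 947.2 and fell by 1.99 ± 0.16 (adjusted p = 0.000231). CRISPLD1, TACC1 (a centrosomal protein), AKT1S1 (PRAS40, a subunit of mTORC1), AK4 (a mitochondrial adenylate kinase), MEOX2 (a homeobox factor), ATE1 (the arginyltransferase) and MCM9 (a helicase of the MCM family) fell by 1.90 to 2.12 and were called in all 8 fits, as were ITGA1, HMGN3 and TASOR. PCDH18 and ADAMTS5 (an aggrecanase) fell by 1.97 and 1.91 and lost the call in 3 and 2 of the 8 fits. In shNTC cells Doxycycline alone changed PCDH18 and ADAMTS5 by 0.67 each, not called. Against all 4 shNTC arrays they fell by 1.64 and 1.58. For AKT1S1 the other probe set changed by -0.10 (20.2 and 41.4 against 41.2 and 25.8), and with the mean of both the call was lost (adjusted p = 0.102). For ATE1 and MCM9 the fall was in the probe set used and not in the next brightest, which changed by -0.15 (166.1 and 167.7 against 209.3 and 166.4) and 0.12 (129.9 and 139.0 against 153.9 and 96.7). A further probe set of AK4 changed by -0.02, and among probe sets that passed the filter on low signals the rest of AK4, both of TASOR (-1.36 and -1.99), all 3 of LIMCH1 and all 3 of ITGA1 were lower. The dim probe sets of TASOR and LIMCH1, at 10.7 or less, changed by -0.29 and -0.15. The next brightest of TACC1 changed by -1.97.

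Of 27 immediate early genes tested 5 were called higher and 3 lower, or 5 and 1 without the second control array. EGR1, a transcription factor induced by ERK signalling, had 2313.9 and 2161.3 against 986.3 and 1063.4 and rose by 1.11 ± 0.14 (adjusted p = 0.00198). MYC had 145.1 and 156.2 against 49.6 and 42.7 and rose by 1.42 ± 0.19 (adjusted p = 0.00248). KLF6, a zinc finger factor, had 624.6 and 542.6 against 1227.9 and 1011.4 and fell by 0.92 ± 0.15 (adjusted p = 0.00762), a call lost without the second combination array (0.0663). The other called members were ATF3, CCN1 and CCN2 (higher) and JUNB and IER3 (lower, by 1.00 and 0.69, calls kept in 3 and 1 of the 8 fits and lost without the second control array). Among 20 output genes of the ERK pathway, DUSP5, EGR1 and MYC rose and SPRY1 and IER3 fell, with a list median of -0.11. DUSP5, the nuclear ERK phosphatase, had 1198.8 and 1256.6 against 660.5 and 588.6 (0.96 ± 0.14). SPRY1, an inhibitor of receptor tyrosine kinase signalling, had 206.5 and 147.8 against 612.0 and 359.7 (-1.35 ± 0.28). Its call was lost in 2 of the 8 fits. Of 24 HSP90 client kinases and receptors FYN alone was called (0.83 ± 0.20, adjusted p = 0.0417, and 0.115 without the second control array), and the list median was 0.04.

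ID1, an inhibitor of differentiation and a BMP target, had 114.8 and 103.4 against 392.9 and 306.7 and fell by 1.54 ± 0.19 (adjusted p = 0.00144). KCNJ2, an inward rectifier potassium channel, had 315.5 and 308.4 against 1083.1 and 889.8 and fell by 1.61 ± 0.16 (adjusted p = 0.000629). Both fell by similar amounts without Doxycycline, by 1.51 and 1.21, and with IER3 these were the 3 genes called lower in both comparisons.

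Among secreted signals 4 of 19 cytokine and chemokine genes were called higher and 1 lower. IL6 had 108.5 and 121.3 against 34.6 and 30.5 and rose by 1.43 ± 0.20 (adjusted p = 0.00272). IL11 had 280.7 and 278.5 against 110.6 and 47.2 and rose by 1.72 ± 0.34 (adjusted p = 0.0173), a call lost without the second control array (0.105) and without the first (0.0572) or second (0.072) combination array. CXCL2 and TNFAIP3 rose by 0.84 and 0.95 and IL1A fell by 0.80, each called in 2 or 3 of the 8 fits. Without the second control array IL6 alone of the list was called. Interferon response genes had a median of -0.32, with 18 of 24 below 0, 0 called higher (0 at an unadjusted p under 0.05) and 3 lower. Over all genes tested the median was 0.01, with 2.84% called higher and 2.99% lower. IFIT1 had 16.7 and 16.5 against 59.0 and 47.9 and fell by 1.09 ± 0.20 (adjusted p = 0.0112). ISG20 and IFI44 fell by 1.25 and 0.77. Between 0 and 3 were called over the 8 fits, and 2 without the second control array. Matrix and adhesion genes had 2 of 38 called higher (ADAMTS6 and MMP3) and 4 lower (SERPINH1, MMP1, ITGB1 and ITGB3), and without the second control array ADAMTS6 and both integrins were. ITGB1, the common integrin beta chain, had 1209.8 and 1356.1 against 2718.0 and 3359.2 and fell by 1.23 ± 0.19 (adjusted p = 0.00485), called in all 8 fits, and the next 2 of its probe sets by brightness changed by -1.52 and -1.71.

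**Figure D4:**
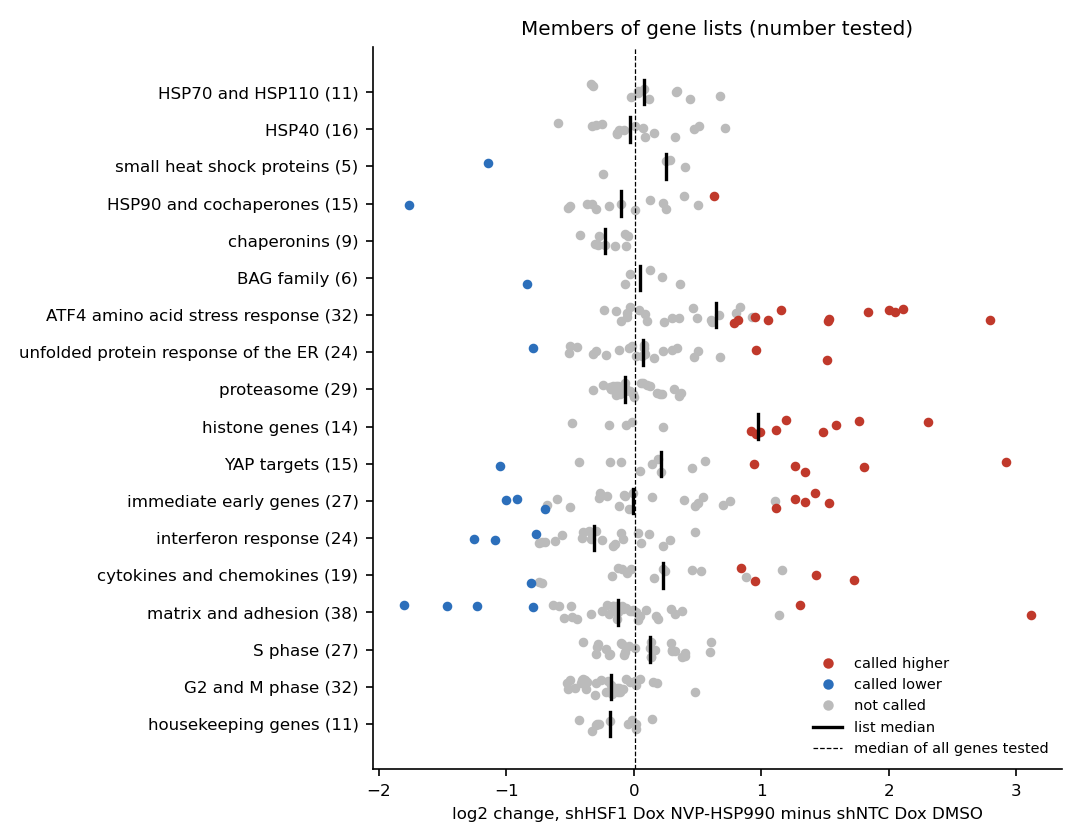
Log2 change of the combination against the Doxycycline control for the members of 18 gene lists (rows, with the number tested), red where called higher and blue where called lower, with the list median as a black bar. The ATF4 list (median 0.64) and the histone genes (0.97) lie to the right of the median of all genes tested (0.01), and the chaperone lists lie around it.

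Other gene groups held few or no called members. Over all genes tested 2.84% were called higher and 2.99% lower, and 19.5% had an unadjusted p under 0.05 by limma. Of 29 proteasome genes, 30 respiratory chain and mitochondrial ribosome genes, 23 ribosome biogenesis genes, 17 cholesterol synthesis genes, 6 metallothioneins and 11 housekeeping genes 0 were called by limma in either direction (before adjustment 1, 2, 1, 2, 0 and 0 had a p under 0.05), and the medians were -0.07, -0.02, 0.12, 0.15, 0.24 and -0.19. Of 28 death effector and BCL2 family genes PMAIP1 (NOXA) rose by 1.10 and HRK by 0.76, both promoters of apoptosis, and each was called in 2 or 3 of the 8 fits. DEDD, a death effector domain protein, had 1623.8 and 1456.7 against 1772.7 and 2184.6 (-0.35 ± 0.17) and was not called. SESN2, GDF15 and PMAIP1 were the 3 of 20 p53 targets called, all higher. ENO2 and ADM of 30 glycolysis and hypoxia genes, GABARAPL1 of 25 autophagy and lysosome genes, ZFAND2A of 14 ubiquitin and p97 genes, DUSP1 of 9 glucocorticoid receptor targets, BMP4 of 17 ID and TGF-beta feedback genes and HSF2BP of 3 heat shock factors and binding proteins were called higher. Of these 7 genes ADM alone kept the call without the second control array. ADM kept it in all 8 fits with an array left out, GABARAPL1 in 6, DUSP1, BMP4 and HSF2BP in 2 each, and ENO2 and ZFAND2A in 0. BMP4 had 41.2 and 34.5 in the combination, 17.8 and 13.6 in the control and 31.6 and 35.8 in shNTC cells without Doxycycline, so it overlapped the latter, and against all 4 shNTC arrays the call was lost (0.44, adjusted p = 0.149). Beside SLC7A11, the oxidative stress list of 20 had MAFF higher (884.9 and 849.4 against 326.6 and 307.7, 1.41 ± 0.14, adjusted p = 0.000629). MAFF had 604.6 and 689.4 in shNTC cells without Doxycycline, a change of -0.99 with Doxycycline alone that was not called, and against all 4 shNTC arrays it rose by 0.91. The list also had NQO1, a quinone reductase, lower (1314.2 and 993.5 against 2141.4 and 1976.9, -0.84 ± 0.18, adjusted p = 0.0223, and 0.055 without the second control array). HMOX1, heme oxygenase 1, was called higher without Doxycycline, and in the combination had 98.7 and 78.8 against 81.4 and 40.6 (0.49 ± 0.30), so the groups overlapped.

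Set beside the inhibitor comparison without Doxycycline, the combination called far more genes, 739 against 28 (0.221% of those tested, 25 higher, 0.197%, and 3 lower, 0.0237%). Of the 25 genes called higher without Doxycycline, 9 were also higher in the combination, 3 were lower and 13 were not called. The 9 were CHAC1, RAB39B, SESN2, DDIT3, SLC7A11, INHBE, CCL26, RGS2 and ZFAND2A. RGS2, a regulator of G protein signalling, had 1686.9 and 1372.6 against 751.1 and 878.9 in the combination and rose by 0.89 ± 0.16. The 13 were HSPA6, HSPA1L, HSPA4L, DNAJB1, DNAJB4, CRYAB, DEDD2, IER5L, ENGASE, HMOX1, MXD1, DMRT1 and C5AR1. Over all 12672 genes the 2 changes correlated at r = 0.23, and over the 739 called genes at 0.40, a description across genes, which are not independent. The same sign was seen without Doxycycline for 255 of the 360 risers (70.8%, with 52.2% of all genes above 0 there) and 226 of the 379 fallers (59.6%, with 47.8% below 0).

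The test of the difference took the change in the combination minus the change without Doxycycline. No array held the knockdown without the inhibitor, and hairpin line and drug changed together in both comparisons, so this term is not the inhibitor's effect alone. It called 100 genes (0.789%), 39 higher (0.308%) and 61 lower (0.481%). Of the 360 risers 38 and of the 379 fallers 54 were called in it, each in the direction of its change. The genes with the smallest p among those called were HSPA6 (-5.44 ± 0.34, adjusted p = 0.000172), BAG3 (-2.74, 0.00149), NAP1L3 (-2.80, 0.00149), HSPB1 (-2.68, 0.00569) and TMEM30A, a lipid flippase subunit (-2.14, 0.00627), on the lower side. On the higher side they were F3 (3.22 ± 0.34, adjusted p = 0.00569), HHAT (2.29, 0.00569), H2BC12 (2.07, 0.00705), CCNA1, a germline A-type cyclin (1.76, 0.0116), and HBEGF (1.87, 0.0116). CCNA1 had 364.2 and 345.1 against 115.9 and 106.5 in the combination and 213.4 and 194.8 against 248.2 and 230.7 without Doxycycline. Doxycycline alone changed it by -1.01 in shNTC cells, and against all 4 shNTC arrays it rose by 1.04. For TMEM30A the combination changes of its 3 probe sets were -1.76, -1.66 and -0.0040. HSF1 itself missed this threshold (-1.86 ± 0.41, adjusted p = 0.0768). Without the second control array 24 genes were called in the difference, and over the 8 fits 7 (without the first shNTC array with DMSO) to 76. Of the 100, 8 were called in the difference and not in the combination, HSPA6, HSPA1L, HSPA4L, HSPH1 (HSP105), CRYAB, DEDD2, IER5L and PDGFA (a growth factor chain), the last of these chosen after its values were seen.

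**Figure D5:**
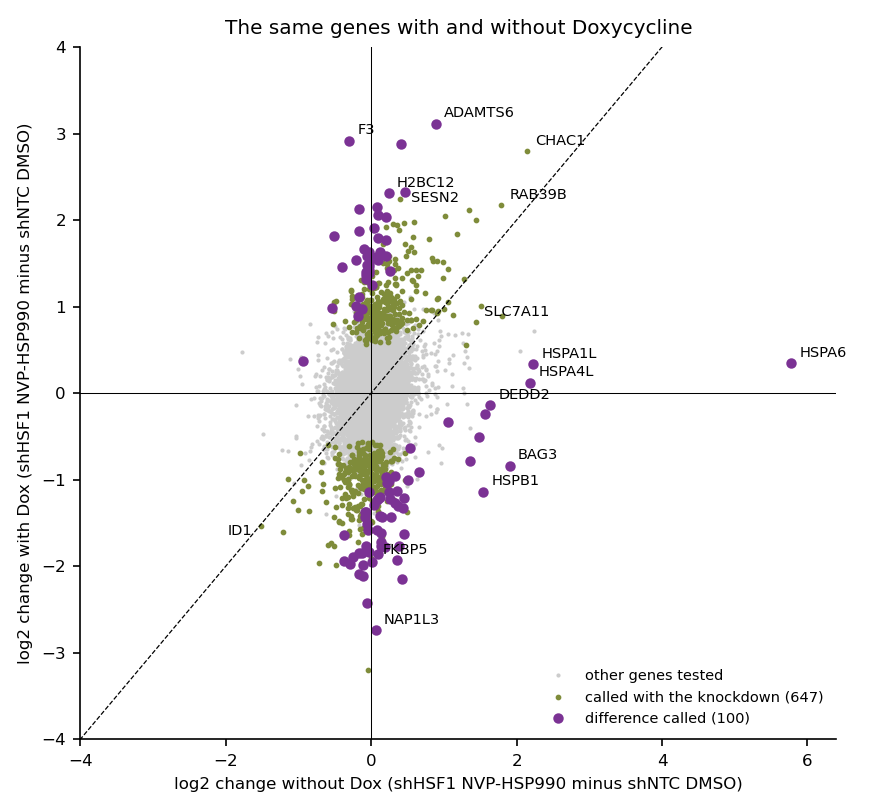
Log2 change with the inhibitor in shHSF1 against DMSO in shNTC cells without Doxycycline (x axis) and with Doxycycline (y axis), for 12672 genes; the dashed line marks equal change. Purple points are the 100 genes whose difference was called: HSPA6, at 5.78 and 0.34, lies far to the right, F3 (-0.31 and 2.92) and ADAMTS6 (0.89 and 3.11) lie at the top, and CHAC1 lies near the dashed line.

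The labelled cell type was checked against its markers. Of 20 melanocyte lineage genes 13 were bright enough to be tested, 9 with a change below 0 and 4 above, with a median of -0.13. SOX10 had 675.5 and 271.5 in the combination against 678.0 and 1069.4 in the control (-0.96). ERBB3 and S100B changed by -0.88 and -0.68. In each of these the groups did not overlap, and none was called. MITF, the lineage's master factor, had 1600.7 and 1605.1 in the combination and 1185.1 and 1572.8 in the control, while MLANA, PMEL and TYR, which define pigmented melanocytes, were at 5.8 or less on all 8 arrays. The summed signal of the 19 lineage genes measured was 3702.7 and 3040.3 against 3704.9 and 4501.2, and RAB38, a small GTPase of melanosome traffic, fell by 1.02 ± 0.18 (181.4 and 143.3 against 315.4 and 375.3), a call lost without the second array of either group (0.073 and 0.069). Fibroblast markers summed to 1339.3 and 1330.4 over 10 genes in the combination, against 649.7 to 860.2 on the other 6 arrays. That rise came from LUM (756.3 and 708.2 against 460.3 and 373.5) and POSTN (375.3 and 417.9 against 176.3 and 123.3), both called higher (LUM not without the second control array, adjusted p = 0.092), while COL1A2, COL3A1 and THY1 were at 11.7 or less on all arrays. None of 10 colon epithelial markers was bright enough to be tested, and of 12 hepatocyte markers 2 were, of which SERPINA1 fell (26.3 and 9.0 against 65.7 and 63.2, adjusted p = 0.139 without that array).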

How the data were processed

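Biotin-labelled cDNA amplified from total RNA of A375 cells was hybridized to 8 HG-U133 Plus2 arrays. The authors deposited MAS5 signal intensities on a linear scale (version not given in the sources used here), scaled per array to a mean of 150 with 2 percent of probe sets trimmed at each end. Groups came from the sample titles, since the description fields name other experiments. Of 54675 probe sets 41091 had a single symbol in the platform annotation, 1801 several, 11721 none, and 62 were controls. The brightest probe set stood for each of 19775 genes, and the 12672 that reached the median signal of the array on at least 2 of 8 arrays were tested. Log2(signal + 16) was fitted with limma 3.58.1 (R 4.3.3, means model of 4 groups over 8 arrays, trended empirical Bayes, two-sided, Benjamini-Hochberg), without a replicate block, and the steps were tested on simulated data. The number of arrays limits the precision. Members and 38 gene lists were chosen with earlier results of these data known. Named genes were HSF1, DEDD, DEDD2, both cytosolic HSP90 genes, the published heat map, the 15 largest rises and falls, up to 4 members of each list and 5 genes per direction of the difference; other members are named where a count is spelled out. Promoters are RefSeq windows (entries for 10346 of the genes tested), used for sequence only. The signals were not normalized further.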

Additional observations from a re-analysis of the deposited data

Results flagged for a closer look

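The change from shNTC cells with DMSO to shHSF1 cells with the inhibitor differed between the arrays with and without Doxycycline, by the interaction term of the fit over all 8 arrays, for 100 genes. No array held the knockdown without the inhibitor, so the response to the inhibitor and the effect of Doxycycline in each line cannot be told apart in this term. Among the genes named in the report the log2 difference (combination minus inhibitor without Doxycycline) was negative for HSPA6 (-5.44), BAG3 (-2.74), HSPB1 (-2.68), SERPINH1 (-2.15), HSPA4L (-2.07), IER5L (-1.98), HSPA1L (-1.89), CRYAB (-1.81), DEDD2 (-1.78) and HSPH1 (-1.40), which are heat shock proteins, their cofactors and other genes of that response. It was also negative for NAP1L3 (-2.80), ITGA1 (-2.57), LIMCH1 (-2.37), ATE1 (-2.29), TMEM30A (-2.14), CRISPLD1 (-2.00), HMGN3 (-1.97), TACC1 (-1.92), TASOR (-1.88), IGSF3 (-1.85), FKBP5 (-1.70), AK4 (-1.69), MCM9 (-1.65) and MEOX2 (-1.56), which had little change without Doxycycline.

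It was positive for F3 (3.22), DIO2 (2.46), ANKRD1 (2.33), HHAT (2.29), ADAMTS6 (2.22), H2BC12 (2.07), TMEM52B (2.06), GFRA1 (1.96), HBEGF (1.87), YOD1 (1.86), TSPAN2 (1.83) and CCNA1 (1.76). The same held for H2AC6 (1.56), H2BC4 (1.54), ADM (1.52), PDGFA (1.31), EGR1 (1.28) and MAFF (1.15).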

How the results depend on the processing

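With 2 arrays a group no group could be searched for an outlying array. The combination called 739 genes, against 450 with no filter on low signals, 1237 with the replicate block and 0 by the methods' t-test (1335 at an unadjusted p under 0.05); with an array left out it called 263 to 802. Without Doxycycline 28 were called, against 16, 44 and 0 (699 unadjusted), and 5 to 30 with an array left out, 5 without the second shNTC array with DMSO. The difference called 100, against 59 with no filter, 279 with the replicate block and 33 with the ACTB ratio as a covariate, an alternative added after seeing the data, and 7 to 76 with an array left out. Quantile normalization gave 368 higher and 461 lower, and median centring 325 and 428. The 12 risers of the ATF4 list were 0 by the t-test and 8 to 13 with an array left out. The 9 histone genes were 5 with no filter, 4 with the covariate, 0 by the t-test and 3 to 9 with an array left out. The 3 lower genes of the published heat map were 0 by the t-test and 1 to 3 with an array left out. The cause of these shifts was not tested.

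Shared numbers pair the arrays by number only: deviations of same-numbered arrays correlated at 0.02 between the combination and its control, at 0.28 between the groups without Doxycycline, at 0.68 between the shHSF1 groups and at 0.46 between the shNTC groups. The replicate block changed the call of 0 genes named in the report. Of 104 named genes called, 51 were called in each fit with an array left out and 48 also under all other limma settings. Changes of genes that were not called turned sign in ATF4 (0.066 with quantile normalization, -0.25 to 0.15 with an array left out, 0.048 with the covariate), DNAJB1 (-0.13 without the first Doxycycline control array, up to 0.28 otherwise), HSPA5 (-0.30 without that array, up to 0.46 otherwise), DEDD2 (-0.41 to 0.13 with an array left out) and ENGASE (-0.021 with quantile normalization, -0.026 with median centring, -0.0067 with mean probe sets, -0.031 against both DMSO groups, -0.17 to 0.18 with an array left out). CDC37L1, called higher, was at -0.0090 with mean probe sets.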
